A study of Mus musculus with 52 samples.

Results

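Transcript levels of 6 mouse PRAME family genes, Pramef25, Gm13119, Pramef17, Pramef6, Pramel6 and Pramel7, were followed through a cell culture model of totipotency and its aggregates. The genes were taken by their symbols from a table of RNA-seq counts for 55291 genes in 52 libraries, and each of the 6 had 1 row. All 6 stood among the 25056 genes with enough counts to be tested.

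Wild-type expanded potential stem cells (EPSCs) of the line mc6-1/Mu-mClover3-10#, kept in LCDM medium, were the starting cells of most groups. S1 cells were EPSCs given the complete totipotency medium for 2 days, and 4 further groups had 2 days of CHIR-99021 (CHIR), by itself or combined with CD1530, Elvitegravir or PD0325901. CHIR inhibits glycogen synthase kinase, CD1530 activates a retinoic acid receptor, PD0325901 inhibits MEK and Elvitegravir is an antiviral integrase inhibitor; the basal medium of these arms is not stated. Wild-type mouse embryonic stem cells (mESCs) of the line 2i-0606-td-ES, kept in 2i/L medium, were profiled as such and after 2 days in the totipotency medium (mESC S1). P25 and P38 cells were EPSCs carried for 25 and 38 passages in that medium. S2 aggregates were made from S1 cells and held for 1 day in 4C-64C medium, and S3 aggregates had 1 day more; both were also grown without 8Br-cAMP, Birabresib, CHIR or CD1530. S5 aggregates had 3 days in a peri-implantation medium, complete or without Activin A, BMP4, FGF4 or XAV 939. Each of the 26 groups had 2 libraries, the EPSCs having libraries 1 and 2 in the first set and 3 and 4 in the second. Each starting cell type was a single line, and the labels do not tell whether the 2 libraries of a group stem from separate cultures, so p-values measure the spread between libraries only.

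PRAME genes encode leucine-rich repeat proteins and form one of the large multigene families of the mouse, with long runs of similar copies on single chromosomes. The founding human gene is known as an antigen of melanoma and testis, and in the mouse many copies are transcribed in germ cells and early embryos. The best studied mouse member is Pramel7, a gene of the inner cell mass that is induced by LIF and STAT3 signalling in embryonic stem cells; its protein acts with the ubiquitin ligase subunit CUL2 to remove UHRF1, the factor that brings DNMT1 to newly copied DNA. Roles of the proteins of Pramef25, Gm13119, Pramef17 and Pramef6 are less well known and are not stated here.

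On the GENCODE M21 models of mm10, 4 of the genes lay in the family's cluster on chromosome 4. Pramef6 (ENSMUSG00000078512.8) was at chr4:143894237-143900380, Pramef25 (ENSMUSG00000078511.3) at chr4:143948580-143951016 and Pramef17 (ENSMUSG00000078509.1) at chr4:143991119-143994369, all on the minus strand. Gm13119 (ENSMUSG00000070619.5) lay 407 kb from Pramef25 at chr4:144357942-144364419 on the plus strand. On chromosome 2, Pramel7 (ENSMUSG00000025839.3, chr2:87489087-87497093, minus strand) and Pramel6 (ENSMUSG00000025838.12, chr2:87506565-87510872, plus strand) were separated by 9.47 kb. No exon of the 6 overlapped an exon of another gene. The table held 34 further family genes.

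Among the 6 genes, sequence likeness did not follow position. The coding sequences of Pramef25 and Gm13119 were 94.3% identical, and Pramef17 on chromosome 4 was more like Pramel7 on chromosome 2 (79.9%) than like any other of the 6. The coding sequence of Gm13101 (chr4:143964518-143966950, minus strand), another family gene, was 96.4% identical to that of Gm13119 and 93.9% to that of Pramef25. Pramel6 and its neighbour Pramel7 shared 57.4% of coding positions. The nearest relative of Pramef17 was Gm13128 (chr4:144330249-144333465, plus strand), which is not one of the 6: their coding sequences were 99.3% identical, and 56.3% of the 100-base windows of Pramef17 also occurred in Gm13128. Of the windows of Pramef25, 26.5% occurred in other genes, against 17.9% for Pramef6, 14.0% for Gm13119 and 0% for Pramel6 and Pramel7. Of the 279 shared windows of Gm13119, 155 occurred in Gm13101. The sources used here do not say how reads from shared windows were assigned, so values of Pramef17 in particular cannot be told apart from those of Gm13128 in these windows.

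Start-site sequences, taken from RefSeq on GRCm38.p6 as the 250 bases before and 50 bases after each start, are shown for 5 genes because their likeness ran with that of the coding sequences for Pramef17, Gm13128 and Pramel7 but not for Pramef25 and Gm13119. Pramef17 (chr4:143994320-143994619, minus strand) and Gm13128 (chr4:144329999-144330298, plus strand) were 97.3% identical there; capitals in these first 2 sequences mark the 7 bases of each that differ or have no partner. Pramel7 (chr2:87492369-87492668, minus strand) shared 75.2% with Pramef17, and its capitals mark the 131 bases in runs of 8 or more that are identical in Pramef17. Pramef25 (chr4:143950967-143951266, minus strand) and Gm13119 (chr4:144357714-144358013, plus strand) were 48.1% identical, held no such shared run, and have no capitals.
Pramef17: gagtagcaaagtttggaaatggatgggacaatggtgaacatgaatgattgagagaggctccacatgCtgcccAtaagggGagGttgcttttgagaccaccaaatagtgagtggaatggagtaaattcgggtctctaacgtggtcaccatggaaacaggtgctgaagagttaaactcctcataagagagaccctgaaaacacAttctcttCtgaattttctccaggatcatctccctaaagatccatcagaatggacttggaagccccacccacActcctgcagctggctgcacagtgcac
Gm13128: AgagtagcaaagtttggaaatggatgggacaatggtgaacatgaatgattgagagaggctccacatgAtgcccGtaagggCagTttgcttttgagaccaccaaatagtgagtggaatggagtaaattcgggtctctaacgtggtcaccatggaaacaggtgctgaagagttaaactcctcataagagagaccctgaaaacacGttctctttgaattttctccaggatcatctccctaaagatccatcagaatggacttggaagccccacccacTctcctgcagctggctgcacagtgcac
Pramel7: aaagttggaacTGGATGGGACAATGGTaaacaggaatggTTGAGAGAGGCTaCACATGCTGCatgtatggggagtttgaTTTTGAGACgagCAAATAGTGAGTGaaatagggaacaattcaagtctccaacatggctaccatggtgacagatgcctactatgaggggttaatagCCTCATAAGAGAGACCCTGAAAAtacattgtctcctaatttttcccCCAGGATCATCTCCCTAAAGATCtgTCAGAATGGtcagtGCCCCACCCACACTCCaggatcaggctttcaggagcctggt
Pramef25: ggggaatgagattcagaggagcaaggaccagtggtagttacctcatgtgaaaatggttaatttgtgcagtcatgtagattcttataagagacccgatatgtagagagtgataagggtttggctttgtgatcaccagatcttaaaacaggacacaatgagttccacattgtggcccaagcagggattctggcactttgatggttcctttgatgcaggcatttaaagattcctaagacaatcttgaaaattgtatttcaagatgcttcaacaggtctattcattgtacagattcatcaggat
Gm13119: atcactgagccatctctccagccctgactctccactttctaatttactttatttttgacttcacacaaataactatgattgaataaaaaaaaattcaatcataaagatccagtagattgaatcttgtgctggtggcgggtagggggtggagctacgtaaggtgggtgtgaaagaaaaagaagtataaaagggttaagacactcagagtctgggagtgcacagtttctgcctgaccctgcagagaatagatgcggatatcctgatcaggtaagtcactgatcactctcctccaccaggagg
The other pairs among the 6 genes shared 43.9% to 53.3% of start-site positions. All 6 windows were poor in CG dinucleotides, with 1 to 3 each, against a median of 7 over the 32851 RefSeq windows of the same size. Of 4 short motifs searched on both strands, only GGATTA, the core of OTX and OBOX sites, was found, 103 bases before the start of Pramef6; it occurred in 7.06% of all windows. TTCNNNGAA (STAT; 8.3% of all windows), TGCACAC (ZSCAN4; 4.4%) and the Dux motif (0.207%) were in none of the 6. The RefSeq start of Pramel7 lay 4.67 kb inside the outermost start of its gene model.

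Library totals ran between 16643188 counts in P25 library 2 and 108304781 counts in S1 library 1. In 46 libraries most low counts were even, as when both mates of a read pair are counted, and in 6 libraries (EPSC 3 and 4, P25 and P38) they were not. The first 12 libraries and the other 40 form separate sets: 24602 genes were at 0 throughout the first 12, the pluripotency gene Sox2 among them, while each of the 6 PRAME genes had counts in both sets. Markers of pluripotent cells summed to 491 to 494 CPM (counts scaled to a common library size with TMM factors) in EPSC libraries 1 and 2 with Sox2 at 0, to 1790 to 1850 CPM in EPSC libraries 3 and 4 and to 1610 to 1620 CPM in mESCs. edgeR's quasi-likelihood test compared the groups, and a call needed a Benjamini-Hochberg adjusted p below 0.05 together with a change of at least 1 on the log2 scale. Where libraries of groups are said to be apart or not to overlap, this only describes the values. The share of all tested genes that were apart was not computed. In bulk RNA, fewer cells expressing a gene and less RNA per cell cannot be told apart.

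**Figure D1:**
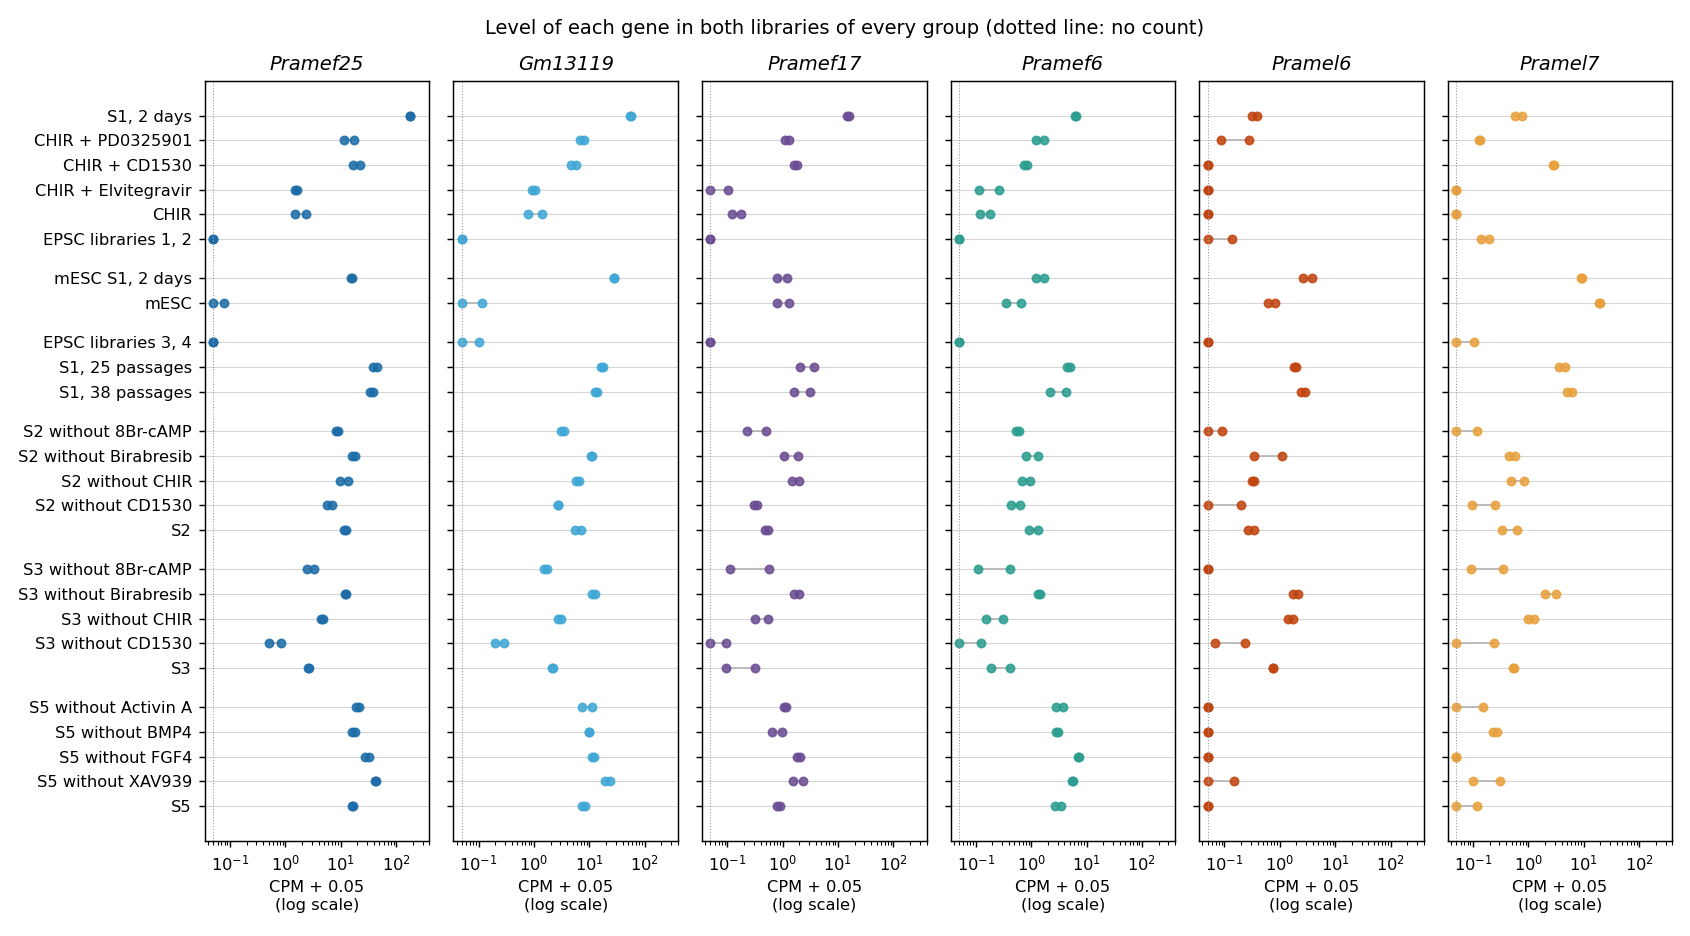
CPM (log axis, 0.05 CPM added) of the 6 genes in all 26 groups, 1 panel per gene; each point is 1 library, and a dotted line marks no count. Pramef25, Gm13119 and Pramef17 were highest in S1 cells, Pramef6 was at 7.06 CPM in S5 aggregates without FGF4 and 6.33 CPM in S1 cells, Pramel6 was highest in mESC S1 cells and Pramel7 in mESCs. S1 cells belong to the first library set and the aggregates and mESC groups to the second.

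All 4 chromosome 4 genes were abundant in S1 cells after 2 days and had no count in either EPSC library. Pramef25 had 181 and 176 CPM in the S1 libraries, Gm13119 had 55.1 and 55.8 CPM, Pramef17 had 14.5 and 15.9 CPM and Pramef6 had 6.46 and 6.19 CPM, each against 0 and 0 CPM in EPSCs. The S1 and EPSC libraries were fully apart for all 4. Taking 3 read pairs over both EPSC libraries as the limit that no count allows, which is 6 counts where both mates are counted, Pramef25 was at least 2550-fold higher in S1 cells (edgeR quasi-likelihood, Benjamini-Hochberg adjusted p = 2.1e-25), Gm13119 at least 791-fold (adjusted p = 1.6e-24), Pramef17 at least 217-fold (adjusted p = 4.9e-13) and Pramef6 at least 90.3-fold (adjusted p = 6.5e-13). Per kb of exon, S1 means were 106 CPM for Pramef25, 26.5 CPM for Gm13119, 8.68 CPM for Pramef17 and 3.03 CPM for Pramef6.

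The chromosome 2 genes also rose, to much lower levels. Pramel7 had 0.533 and 0.724 CPM in S1 cells, against 0.0888 and 0.148 CPM in EPSCs (log2 fold change 2.39, SE 0.69, edgeR adjusted p = 0.0043). Pramel6 had 0.259 and 0.338 CPM in S1 cells, against 0.0888 and 0 CPM in EPSCs (2.61, SE 1.04, edgeR adjusted p = 0.04). The call for Pramel7 was lost without EPSC library 1, and that for Pramel6 was lost without either S1 library or EPSC library 2; without EPSC library 1, where the remaining EPSC library has no count, the fitted change of Pramel6 was 6.68. All 6 genes thus rose in the fit of all libraries, where 18.7% of all tested genes rose. Of the 18 other family genes tested, 15 rose.

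Other gene lists and markers of other cell types moved in the same comparison. Of 2-cell genes, a list that includes Zscan4 and Usp17l copies, 21 of 21 tested rose. Their sums were 2250 to 2410 CPM in S1 cells and 0.961 to 1.67 CPM in EPSCs. Of 16 naive pluripotency and LIF-STAT3 genes 14 fell. All 4 trophectoderm markers (Cdx2, Gata3, Krt8 and Krt18) rose, to summed levels of 882 to 1180 CPM in S1 cells against 15.0 to 16.2 CPM in EPSCs. Of 10 markers of germ cells and oocytes, 3 rose and 1 fell among 7 tested, with sums of 80.9 to 83.6 CPM in S1 cells and 30.6 to 31.2 CPM in EPSCs, where Zp1, Zp2, Bmp15 and Oosp1 were at 0. Of 4 endoderm markers 3 rose, with sums of 40.1 to 41 CPM in S1 cells and 10.4 to 10.9 CPM in EPSCs. The part of these lists and markers in the levels of the PRAME genes was not tested.

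After 2 days with CHIR alone, counts of all 4 chromosome 4 genes were present. Pramef25 had 1.47 and 2.29 CPM with CHIR (at least 26.8-fold higher, edgeR adjusted p = 5.5e-12) and Gm13119 had 0.737 and 1.34 CPM (at least 14.8-fold, edgeR adjusted p = 6.0e-11), against no count in EPSCs. Pramef17 and Pramef6 each had 0.13 and 0.0703 CPM with CHIR (at least 1.43-fold each, edgeR adjusted p = 0.034 and 0.016). These last calls were lost without CHIR library 1 or without either EPSC library. Pramel7 had no count with CHIR, against 0.0888 and 0.148 CPM in EPSCs, and was called at least 1.47-fold lower (edgeR adjusted p = 0.044). That call was lost whichever of the 4 libraries was left out, with the 4 EPSC libraries pooled and with counts halved. With 4 genes higher and 1 lower, 5 of the 6 changed, where 18.7% of all tested genes changed. Pramel6 had no count with CHIR and was not called. Of 21 tested 2-cell genes 17 rose (22.3 to 26.7 CPM summed with CHIR, 0.961 to 1.67 CPM in EPSCs), and their part was not tested. All 4 endoderm markers rose (120 to 140 CPM summed with CHIR, 10.4 to 10.9 CPM in EPSCs), 2 of 4 trophectoderm markers rose (60.3 to 78.3 CPM and 15.0 to 16.2 CPM), and 8 of 10 feeder markers fell (79.3 to 80.1 CPM and 277 to 302 CPM), as did 15 of 16 naive pluripotency and LIF-STAT3 genes; the part of these was not tested.

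All 4 chromosome 4 genes were higher still with CD1530 or PD0325901 added to CHIR, and none was called with Elvitegravir. Pramef25 had 16.7 and 22.1 CPM with CD1530, against 1.47 and 2.29 CPM with CHIR alone (log2 fold change 3.41, SE 0.21, edgeR adjusted p = 3.3e-15). With PD0325901 it had 11.3 and 17.6 CPM (2.96, SE 0.22, edgeR adjusted p = 1.4e-12). Libraries of both treatments lay above those of CHIR alone. Gm13119, Pramef17 and Pramef6 changed by 2.37, 3.94 and 2.77 on the log2 scale with CD1530 (SE 0.23, 0.66 and 0.62) and by 2.85, 3.39 and 3.66 with PD0325901 (SE 0.23, 0.68 and 0.59). Without CHIR library 1 the changes of Pramef17 and Pramef6 were 4.58 and 3.42 with CD1530 and 3.98 and 4.25 with PD0325901. The 4 calls for PD0325901 were lost when only the libraries of these 2 groups entered the fit, with adjusted p between 0.094 and 0.12 and changes of 2.95, 2.81, 3.43 and 3.71 for Pramef25, Gm13119, Pramef17 and Pramef6. Libraries 1 and 2 differed most within these 2 groups, by a chi-square per degree of freedom of 121 for CHIR and 99.1 for PD0325901, against 2.41 to 73.5 in the other groups. Without library 2 of both groups the 4 genes were called, at 2.94, 3.17, 3.02 and 3.17 (edgeR adjusted p of at most 0.022).

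Pramel7 was called with CD1530 and not with PD0325901. It had 2.74 and 2.80 CPM with CD1530, against no count with CHIR alone (at least 34.4-fold higher, edgeR adjusted p = 2.8e-08), and with PD0325901 it had 0.0838 and 0.0774 CPM. The difference between the 2 additions was not tested. In S1 cells, which received all agents, its level was lower than with CHIR and CD1530 (log2 fold change -2.14, SE 0.49, edgeR adjusted p = 0.00077). Pramel6 had no count in any library with CHIR alone, CD1530 or Elvitegravir. In counts, 5 of 6 rose with CD1530, 4 of 6 with PD0325901 and 0 of 6 changed with Elvitegravir; over all tested genes 9.74% rose with CD1530, 3.27% rose with PD0325901 and 0.00798% changed with Elvitegravir. At an unadjusted p below 0.05, 0 of the 6 differed with Elvitegravir, and DESeq2 also called 0. Of 21 tested 2-cell genes, 21 rose with CD1530, 18 rose with PD0325901 and 0 changed with Elvitegravir. Their part in the PRAME levels was not tested.

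Genes of the STAT3 pathway were read in the same arms. Socs3, a feedback inhibitor that STAT3 induces, had 11.0 CPM with CD1530 and 2.80 CPM with CHIR alone (log2 fold change 1.91), and Stat3 itself had 87.8 and 31.5 CPM (1.48, edgeR adjusted p = 6.8e-16). With PD0325901, Socs3 had 4.99 CPM (0.85, adjusted p = 0.0053, short of the fold needed) and Stat3 27.9 CPM (-0.18, not called). Of 16 naive pluripotency and LIF-STAT3 genes, 7 rose and 3 fell with CD1530, and 5 rose and 0 fell with PD0325901. All 4 endoderm and all 4 trophectoderm markers rose as well, the endoderm sum being 1170 to 1190 CPM with CD1530 and 120 to 140 CPM with CHIR alone. With PD0325901 the endoderm sum was 9.46 to 10.3 CPM, all 4 having fallen. Stat3 was lower in S1 cells than in EPSCs, as given below, and Pramel7 was higher there. The part of the STAT3 pathway genes or of either marker group in the Pramel7 level was not tested.

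The complete medium gave more of the chromosome 4 transcripts than either addition to CHIR. Set against CHIR with PD0325901, S1 cells had log2 fold changes of 3.65 for Pramef25, 2.95 for Gm13119, 3.74 for Pramef17 and 2.20 for Pramef6. Set against CHIR with CD1530 the changes were 3.20, 3.43, 3.19 and 3.09 in the same order of genes. Pramel7 rose relative to PD0325901 (2.88, edgeR adjusted p = 0.00099), and Pramel6 rose relative to CD1530 (at least 4.27-fold, edgeR adjusted p = 0.004), a call lost without CD1530 library 2. Relative to PD0325901, Pramel6 had a change of 1.61 and was not called, but was without library 2 of both CHIR alone and PD0325901 (2.88, adjusted p rounding to 0.05). In counts, 5 of 6 rose in S1 cells over PD0325901, where 10.8% of tested genes rose, and 6 of 6 changed relative to CD1530, 5 higher and Pramel7 lower, where 11.3% changed. All 21 tested 2-cell genes also rose in both comparisons, and their part was not tested.

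In mESCs the family started from another state. Pramel7 had 18.9 and 19.6 CPM in mESCs, against 0 and 0.0534 CPM in EPSC libraries 3 and 4, where a single count was seen (ratio 719, 95% counting interval 129 to 28400, edgeR adjusted p = 1.2e-10). Pramef17 (1.28 and 0.734 CPM in mESCs), Pramel6 (0.557 and 0.762 CPM) and Pramef6 (0.295 and 0.598 CPM) had no count in those EPSC libraries and were at least 12.5-fold, 8.19-fold and 5.55-fold higher in mESCs. Pramef25 and Gm13119 had at most 0.0655 CPM in any mESC library and were not called. So 4 of 6 rose, where 9.66% of tested genes rose. Mates were counted separately in the mESC libraries and once in these EPSC libraries, a difference that cannot be told apart from the cell type. Feeder fibroblast markers summed to 2170 to 2280 CPM in mESCs and 736 to 751 CPM in these EPSCs, with 4 of 10 higher and 1 lower; their part was not tested.

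Totipotency medium for 2 days changed 5 of the 6 in mESCs, where 22.5% of tested genes changed. Pramef25 had 15.1 and 16.2 CPM in mESC S1 cells, against 0 and 0.0272 CPM in mESCs (ratio 1050, 95% counting interval 93.9 to 20800, edgeR adjusted p = 3.8e-19). Gm13119 had 28.2 and 28.1 CPM in mESC S1 cells, against 0.0655 and 0 CPM in mESCs (ratio 947, interval 170 to 37400, edgeR adjusted p = 8.0e-22). Both pairs of libraries were fully apart, and these calls held whichever of the 4 libraries was left out. Pramel7 was lower, with 8.80 and 9.15 CPM in mESC S1 cells, against 18.9 and 19.6 CPM in mESCs (log2 fold change -1.10, SE 0.44, edgeR adjusted p = 0.043), but the call was lost whichever of the 4 libraries was left out. Pramef6 (1.62, SE 0.47, edgeR adjusted p = 0.0051) and Pramel6 (2.25, SE 0.75, edgeR adjusted p = 0.016) rose. The call for Pramef6 was lost without mESC library 1 or mESC S1 library 2, and its change was 2.24 without mESC library 2; that for Pramel6 was lost without either mESC library or without mESC S1 library 1. Pramef17, with 0.742 and 1.14 CPM in mESC S1 cells and 1.28 and 0.734 CPM in mESCs, overlapped and was not called (-0.09, SE 0.50). Its reads cannot be told apart from those of Gm13128 in the windows they share.

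In both starting lines Pramef25, Gm13119, Pramef6 and Pramel6 were called higher in the totipotency medium, and the calls differed for Pramef17 and Pramel7. The change in mESCs differed from that in EPSCs for Pramef17, Pramef6 and Pramel7, by -12.42, -9.45 and -3.49 on the log2 scale (SE 1.22, 1.25 and 0.82; edgeR adjusted p = 2.8e-10, 1.6e-07 and 0.00092 for the interaction). The first 2 of these sizes rest on EPSC groups with no count and are no measure of size. Reads of Gm13128 in shared windows may also enter the Pramef17 values, which was not tested. For Pramel7 the directions were opposite. Over all tested genes, 18.7% differed. The interaction was not called for Pramef25 (adjusted p = 0.1) or Gm13119 (adjusted p = 0.073), nor for Pramel6 (adjusted p = 1.0); it was called for Pramef25 by DESeq2 (adjusted p = 0.027) and in a fit of these 8 libraries alone (adjusted p = 0.042), and for Gm13119 without mESC library 2 (adjusted p = 0.025). In mESCs, 21 of 21 tested 2-cell genes rose, 4 of 4 trophectoderm markers rose (51.2 to 52 CPM summed in mESC S1 cells, 15.2 to 16.1 CPM in mESCs), 3 of 4 endoderm markers rose (22.9 to 24.8 CPM and 12.9 to 13 CPM), 2 of 7 tested germ cell and oocyte markers rose and 1 fell (254 to 257 CPM and 19.3 to 19.6 CPM), and 4 of 10 feeder markers fell and 2 rose (1040 to 1050 CPM in mESC S1 cells, 2170 to 2280 CPM in mESCs); the part of these markers in the PRAME levels was not tested. Line, medium of origin and library set differ between the 2 starting points and cannot be told apart.

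**Figure D2:**
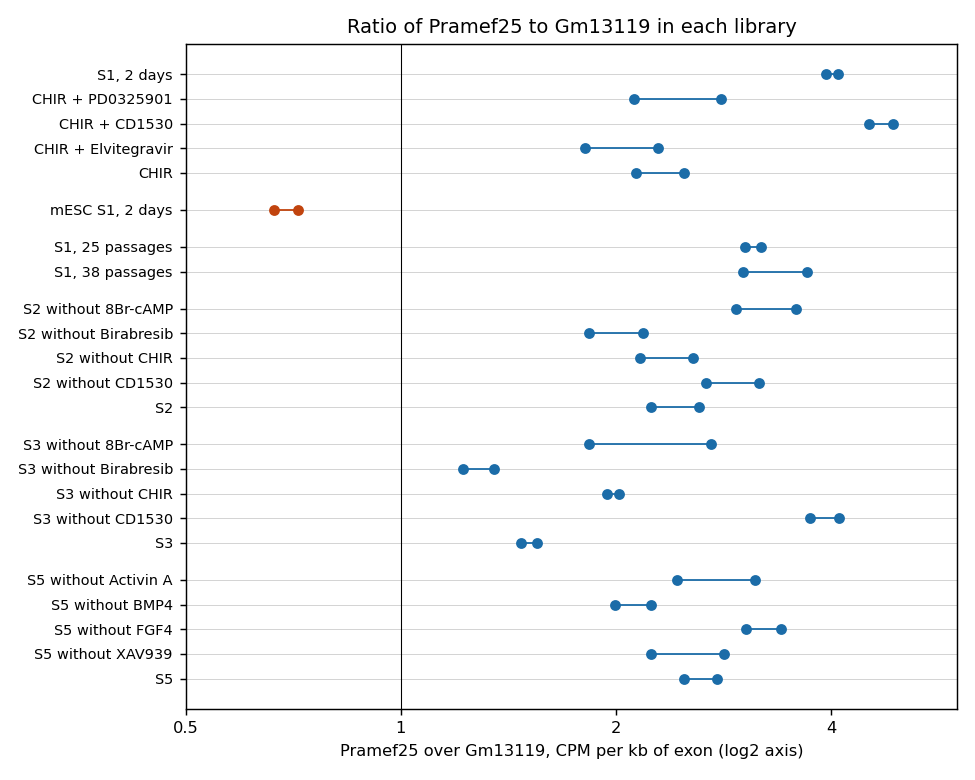
Level of Pramef25 over level of Gm13119, each per kb of exon (log axis), for every library of groups with at least 5 counts of each gene. mESC S1 libraries, in red, lay below 1 at 0.664 and 0.717, and the libraries of all other groups shown lay above 1.

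The ratio of the 2 most abundant genes differed between S1 and mESC S1 cells. Per kb of exon, Pramef25 over Gm13119 was 4.08 and 3.93 in the S1 libraries and 0.664 and 0.717 in the mESC S1 libraries. The ratio was 3.19 and 3.03 in P25 cells and 3.01 and 3.70 in P38 cells. Among the EPSC-derived aggregates the ratio was lowest in S3 without Birabresib, at 1.22 and 1.35, and highest in S3 without CD1530, at 4.10 and 3.73. Gm13119 had only 10 and 8 counts in the S3 libraries without CD1530, so that ratio rests on few reads. Pramef25 and Gm13119 share 94.3% of coding positions and 48.1% of start-site positions, as shown above. The ratios are descriptions and were not tested, and S1 and mESC S1 cells come from different library sets. Reads in windows that other genes share may enter either level, which was not tested.

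In long-passaged cells the 4 chromosome 4 genes were expressed and the chromosome 2 genes were higher than in EPSCs. Medium and passage cannot be told apart in this comparison. P25 cells had 44.6 and 39.0 CPM of Pramef25, against no count in EPSC libraries 3 and 4 (at least 519-fold higher, edgeR adjusted p = 2.2e-20). Pramel7 had 4.51 and 3.48 CPM in P25 cells, against 0 and 0.0534 CPM in EPSCs (ratio 150, 95% counting interval 26.5 to 5970, edgeR adjusted p = 3.3e-07), and Pramel6 had 1.74 and 1.89 CPM, against no count (at least 22.5-fold, edgeR adjusted p = 0.00017). Gm13119 (17.4 and 16.0 CPM), Pramef6 (4.35 and 5.01 CPM) and Pramef17 (3.58 and 2.01 CPM) rose too. All 6 rose in P25 and all 6 in P38 cells, where 13.2% and 11.8% of tested genes rose. P38 cells had 33.5 and 38.1 CPM of Pramef25 and 4.84 and 6.13 CPM of Pramel7. Between P38 and P25 cells none of the 6 was called, with log2 fold changes of -0.56 to 0.50 (edgeR; 0.339% of tested genes changed; 0 of 6 had an unadjusted p below 0.05, and DESeq2 called 0).

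The change of Pramel7 over EPSCs was larger at 25 passages than at 2 days by 4.68 on the log2 scale (SE 1.57, edgeR adjusted p = 0.031 for the interaction; 9.30% of tested genes differed). It rests on 1 count in EPSC libraries 3 and 4, and the call was lost without S1 library 1, P25 library 1 or any one of the 4 EPSC libraries. The S1 and P25 responses come from different library sets, so passage and set cannot be told apart. No other member was called; for Pramel6 the interaction was called in a fit of these 8 libraries alone (adjusted p = 0.041). Trophectoderm markers summed to 806 to 851 CPM in P25 cells and 18.1 to 19.4 CPM in EPSCs, all 4 having risen, and feeder markers to 1300 to 1310 CPM and 736 to 751 CPM, 2 of 10 having risen and 1 fallen. All 4 endoderm markers rose (62.5 to 65 CPM in P25 cells, 14.4 to 16.8 CPM in EPSCs), as did 2 of 7 tested germ cell and oocyte markers (80.1 to 83.2 CPM and 19 to 20.3 CPM). Of 21 tested 2-cell genes 21 rose (495 to 510 CPM summed in P25 cells, 0.962 to 1.24 CPM in EPSCs). Of 16 naive pluripotency and LIF-STAT3 genes 9 fell and 1 rose. The part of these genes and markers was not tested.

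**Figure D3:**
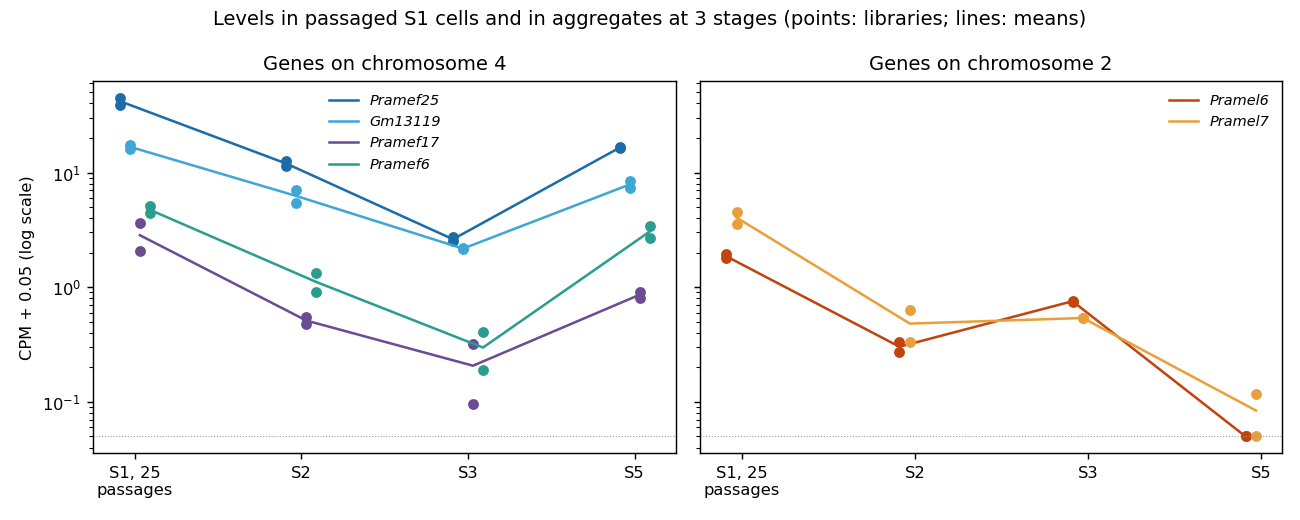
CPM (log axis) in P25 cells and in S2, S3 and S5 aggregates grown in complete medium, with the chromosome 4 genes in one panel and Pramel6 and Pramel7 in the other; points are libraries and lines join group means. The chromosome 4 genes were lowest at S3 and higher again at S5, where Pramel6 had no count.

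From P25 cells through the aggregate stages, the 4 members on chromosome 4 had their lowest means at S3 and were higher at S5. Pramel6 and Pramel7 on chromosome 2 had their lowest means at S5. P25 means of Pramef25, Gm13119, Pramef17 and Pramef6 were 41.8, 16.7, 2.79 and 4.68 CPM. Their S5 means were lower, at 16.4, 7.8, 0.809 and 3.0 CPM, a difference that was not tested. S2 aggregates were set against P25 cells, the passaged cells of the same library set. The labels do not say which passage gave the aggregates. Mates were counted once in the P25 libraries and separately in the S2 libraries, a difference that cannot be told apart from the cells. All 6 genes fell, where 11.4% of tested genes fell. Pramef25 had 11.3 and 12.5 CPM in S2 aggregates, against 44.6 and 39.0 CPM in P25 cells (log2 fold change -1.81, SE 0.18), and Pramel7 had 0.286 and 0.578 CPM, against 4.51 and 3.48 CPM (-3.20, SE 0.57). Gm13119, Pramef17, Pramef6 and Pramel6 changed by -1.43, -2.60, -2.13 and -2.83 (SE 0.19, 0.54, 0.42 and 0.84). The call for Pramel6 (edgeR adjusted p = 0.0089) was lost without S2 library 2. Of 21 tested 2-cell genes 19 fell (142 to 174 CPM summed in S2 aggregates, 495 to 510 CPM in P25 cells). Trophectoderm markers fell in 3 of 4 and rose in 1 (249 to 266 CPM summed in S2 aggregates, 806 to 851 CPM in P25 cells). Feeder markers fell in 6 of 10 (272 to 284 CPM and 1300 to 1310 CPM). The part of these genes and markers was not tested.

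By S3, 3 of the 6 were lower still, where 3.37% of tested genes fell. Pramef25 had 2.67 and 2.48 CPM in S3 aggregates, against 11.3 and 12.5 CPM in S2 aggregates (log2 fold change -2.21, SE 0.20, edgeR adjusted p = 5.7e-10). Gm13119 had 2.13 and 2.10 CPM in S3 aggregates, against 5.41 and 6.96 CPM (-1.55, SE 0.20, edgeR adjusted p = 5.9e-07). Pramef6 had 0.139 and 0.357 CPM, against 0.859 and 1.27 CPM (-2.08, SE 0.51, edgeR adjusted p = 0.0033), a call lost without S2 library 2 or S3 library 1, and its change was -2.92 without S3 library 2. Pramef17 had 0.0464 and 0.268 CPM in S3 aggregates and 0.429 and 0.495 CPM in S2 aggregates (-1.53, adjusted p = 0.13); without S3 library 2 it was called (-3.25, adjusted p = 0.047). Pramel6 (1.47, adjusted p = 0.25) and Pramel7 (0.17, adjusted p = 0.93) were not called. Of 21 tested 2-cell genes 19 fell (22.0 to 23.9 CPM summed in S3 aggregates, 142 to 174 CPM in S2 aggregates). Feeder markers fell in 4 of 10 and all 4 endoderm markers rose (106 to 109 CPM in S3 aggregates, 37.1 to 41.4 CPM in S2 aggregates). The part of these genes and markers was not tested.

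At S5 the 4 members on chromosome 4 and the 2 members on chromosome 2 went opposite ways. Pramef25 had 16.7 and 16.2 CPM in S5 aggregates, against 2.67 and 2.48 CPM in S3 aggregates (log2 fold change 2.68, SE 0.20, edgeR adjusted p = 1.9e-13), Gm13119 had 8.35 and 7.25 CPM, against 2.13 and 2.10 CPM (1.88, SE 0.20, edgeR adjusted p = 5.6e-10), and Pramef6 had 2.63 and 3.38 CPM, against 0.139 and 0.357 CPM (3.57, SE 0.48, edgeR adjusted p = 1.2e-07). Pramef17 had 0.751 and 0.867 CPM, against 0.0464 and 0.268 CPM (2.33, SE 0.63, edgeR adjusted p = 0.0027), a call lost without S3 library 1. Without S3 library 2 the changes of Pramef17 and Pramef6 were 4.05 and 4.41. Pramel6 had no count in S5 aggregates, against 0.696 and 0.715 CPM at S3 (at least 10.5-fold lower, edgeR adjusted p = 0.00018), and Pramel7 had 0 and 0.0684 CPM, against 0.487 and 0.491 CPM (-3.75, SE 0.93, edgeR adjusted p = 0.0012). All 6 changed, 4 higher and 2 lower, where 22.6% of tested genes changed. Of 18 other family genes tested, 6 rose and 1, Gm13128 on chromosome 4, fell. In the same step 18 of 21 tested 2-cell genes rose, 8 of 16 naive pluripotency and LIF-STAT3 genes fell and 1 rose, 3 of 4 endoderm markers rose (941 to 1250 CPM summed at S5, 106 to 109 CPM at S3) and 8 of 10 feeder markers fell and 1 rose (59.5 to 59.6 CPM at S5, 183 to 199 CPM at S3). The part of these markers was not tested.

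Leaving single agents out of the aggregate medium changed few members on day 1. Without CD1530, Gm13119 had 2.62 and 2.72 CPM in S2 aggregates, against 5.41 and 6.96 CPM in complete medium (log2 fold change -1.21, SE 0.20, edgeR adjusted p = 5.6e-05); it was the 1 member that fell, where 1.61% of tested genes fell. Pramef25 had 5.61 and 6.95 CPM without CD1530, against 11.3 and 12.5 CPM, short of the fold needed (-0.93, adjusted p = 0.001); it passed without S2 library 1 (-1.01) or without library 2 of the CD1530 omission (-1.09). Without CHIR, Pramef17 rose to 1.95 and 1.41 CPM, against 0.429 and 0.495 CPM (1.86, SE 0.53, edgeR adjusted p = 0.014; 1 of 6, where 2.86% of tested genes rose), a call lost without either S2 library or the first library of the omission. Without 8Br-cAMP, a cell-permeable form of cyclic AMP, Pramel7 had 0.0683 and 0 CPM, against 0.286 and 0.578 CPM (-3.93, SE 1.06, edgeR adjusted p = 0.018; 1 of 6, where 1.28% fell), a call lost without S2 library 2 or library 2 of the omission. There Gm13119 changed by -0.93 and passed without S2 library 1 (-1.11) or without the first library of the omission (-1.02).

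The omission of Birabresib, an inhibitor of BET bromodomain proteins, went with called changes at S3 and none at S2. Without it, no member was called at S2 (0 of 6 by edgeR, where 2.98% of tested genes changed; 3 had an unadjusted p below 0.05). Gm13119 had 10.5 and 11.0 CPM without Birabresib and 5.41 and 6.96 CPM with it (0.79, adjusted p = 0.0043), short of the fold needed. Pramef17 had 1.84 and 1.03 CPM, against 0.429 and 0.495 CPM (1.62, edgeR adjusted p = 0.052). It was called by DESeq2 (1.65, adjusted p = 0.028) and without library 2 of the omission (1.98). At S3, Pramef25 had 12.5 and 12.1 CPM without Birabresib, against 2.67 and 2.48 CPM in complete medium (log2 fold change 2.26, SE 0.20, edgeR adjusted p = 3.6e-10). Gm13119 had 12.7 and 11.2 CPM, against 2.13 and 2.10 CPM (2.49, SE 0.20, edgeR adjusted p = 2.7e-11), and Pramel7 had 1.94 and 3.05 CPM, against 0.487 and 0.491 CPM (2.35, SE 0.53, edgeR adjusted p = 0.0016). All omission libraries lay above all complete-medium libraries for these 3 genes. Pramef17 (3.42, SE 0.60) and Pramef6 (2.40, SE 0.49) also rose; without S3 library 2 their changes were 5.13 and 3.23, and without S3 library 1 that of Pramef17 was 2.67. Pramel6 had 1.68 and 2.06 CPM without Birabresib and 0.696 and 0.715 CPM with it (1.41, adjusted p = 0.21), and was called with counts halved (adjusted p = 0.047) and in a fit of these 4 libraries alone (adjusted p = 0.0051). In all, 5 of 6 rose, where 5.75% of tested genes rose. The Birabresib effect at S3 minus that at S2 was 1.73 for Pramef25, 1.70 for Gm13119 and 2.45 for Pramef6 on the log2 scale (SE 0.27, 0.27 and 0.66; edgeR adjusted p = 0.00015, 0.00015 and 0.042), where 0.87% of tested genes differed. The call for Pramef6 was lost in a fit of these 8 libraries alone (adjusted p = 0.076) and without any one of them except S3 library 2 and library 2 of the omission at S2.

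**Figure D4:**
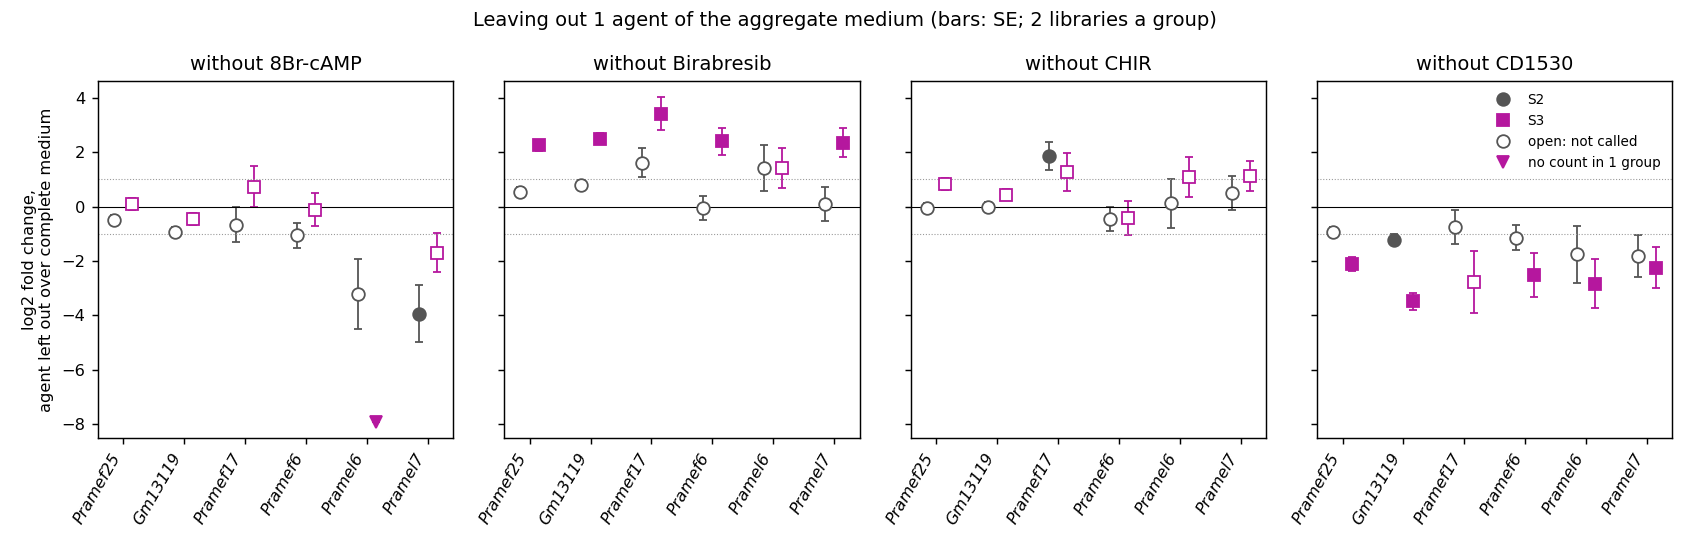
Log2 fold change of each gene when 1 agent was left out over complete 4C-64C medium, at S2 (circles) and S3 (squares); filled symbols are called changes, bars are standard errors and triangles mark comparisons with no count in one group. At S3, Pramef25 and Gm13119 were 2.26 and 2.49 higher without Birabresib and changed by -2.11 and -3.48 without CD1530.

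CD1530 omission at S3 went the other way. Gm13119 had 0.233 and 0.149 CPM without CD1530, against 2.13 and 2.10 CPM in complete medium (log2 fold change -3.48, SE 0.31, edgeR adjusted p = 1.2e-10), and Pramef25 had 0.768 and 0.447 CPM, against 2.67 and 2.48 CPM (-2.11, SE 0.27, edgeR adjusted p = 3.4e-07). Both genes were apart in all libraries. Pramef6 (-2.52, edgeR adjusted p = 0.025), Pramel6 (-2.83, edgeR adjusted p = 0.027) and Pramel7 (-2.24, edgeR adjusted p = 0.03) also fell, so that 5 of 6 fell where 3.82% of tested genes fell. These 3 calls depended on single libraries: that for Pramef6 was lost without S3 library 2, without library 1 of the omission or with counts halved, and those for Pramel6 and Pramel7 without either S3 library, and also without library 2 (Pramel6) or library 1 (Pramel7) of the omission. Without the other library of the omission the fitted changes were -6.41 for Pramef6, -5.04 for Pramel6 and -7.37 for Pramel7. Pramef17, with 0.0465 and 0 CPM without CD1530, was not called (-2.76, adjusted p = 0.088), but was without S3 library 1 or without the low-count filter (adjusted p = 0.033 in both). The effect at S3 minus that at S2 was -2.27 for Gm13119 and -1.18 for Pramef25 (SE 0.38 and 0.33; edgeR adjusted p = 0.00043 and 0.046), where 0.962% of tested genes differed. The call for Pramef25 was lost with RLE scaling (adjusted p = 0.052), with counts halved (adjusted p = 0.086) and without any one of these 8 libraries except library 1 of the omission at S3.

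In the remaining S3 omissions edgeR called Pramel6 alone. Without 8Br-cAMP it had no count, against 0.696 and 0.715 CPM in complete medium (at least 9.8-fold lower, edgeR adjusted p = 0.00064; 1 of 6, where 3.8% of tested genes fell). In the same comparison 3 of 4 endoderm markers fell (33.2 to 33.3 CPM summed without 8Br-cAMP, 106 to 109 CPM with it), 3 of 4 trophectoderm markers fell and 1 rose (197 to 217 CPM and 405 to 434 CPM), and 7 of 16 naive pluripotency and LIF-STAT3 genes fell and 1 rose; their part was not tested. Pramel7 had 0.0407 and 0.292 CPM without 8Br-cAMP (-1.69, adjusted p = 0.1) and was called by DESeq2 (adjusted p = 0.037), without the low-count filter (adjusted p = 0.027) and without library 2 of the omission (-3.49, adjusted p = 0.026). Without CHIR no member was called by edgeR or DESeq2 (0 of 6, where 9.16% of tested genes changed; 2 had an unadjusted p below 0.05); Pramef25 had 4.41 and 4.72 CPM, against 2.67 and 2.48 CPM (0.83, adjusted p = 0.0031), and Pramel6 was called in a fit of these 4 libraries alone (1.10, adjusted p = 0.028). For these 2 agents no member's effect was called as different between S3 and S2 by edgeR or DESeq2 (by edgeR, 1 of 6 for each had an unadjusted p below 0.05; 1.9% and 2.43% of tested genes differed); for Pramef25 the CHIR difference (0.86, adjusted p = 0.062) was called without library 1 of the omission at S2 (1.14, adjusted p = 0.024).

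Marker values moved with these omissions as well. At S3 without Birabresib 20 of 21 tested 2-cell genes rose, trophectoderm markers summed to 815 to 829 CPM against 405 to 434 CPM in complete medium with 1 of 4 called, and feeder markers to 205 to 220 CPM against 183 to 199 CPM with 1 of 10 called. At S3 without CD1530 9 of 21 tested 2-cell genes fell, trophectoderm markers summed to 829 to 865 CPM with 2 of 4 having risen, and feeder markers to 82.3 to 92.6 CPM with 3 of 10 having fallen. The part of these markers in the PRAME levels was not tested.

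At S5 the 2 most abundant members were higher without XAV 939, a tankyrase inhibitor that dampens WNT signalling. Pramef25 had 43.5 and 42.0 CPM without XAV 939, against 16.7 and 16.2 CPM in complete medium (log2 fold change 1.38, SE 0.17, edgeR adjusted p = 1.2e-06). Gm13119 had 19.1 and 23.3 CPM, against 8.35 and 7.25 CPM (1.44, SE 0.18, edgeR adjusted p = 6.5e-07). So 2 of 6 rose, where 1.13% of tested genes rose; 17 of 21 tested 2-cell genes rose too, and 2 of 4 endoderm markers fell (465 to 594 CPM summed without XAV 939, 941 to 1250 CPM with it), whose part was not tested. Without FGF4, Pramef6 had 7.27 and 6.86 CPM, against 2.63 and 3.38 CPM (1.23, SE 0.37, edgeR adjusted p = 0.02; 1 of 6, where 2.12% rose), a call lost whichever of the 4 libraries was left out. All 4 endoderm markers (313 to 348 CPM summed without FGF4, 941 to 1250 CPM with it) and all 4 trophectoderm markers (176 to 179 CPM and 450 to 500 CPM) fell there, as did 11 of 16 naive pluripotency and LIF-STAT3 genes, and 5 of 21 tested 2-cell genes rose; their part was not tested. Pramef25 had 27.7 and 32.9 CPM without FGF4 (0.88, adjusted p = 0.0003; 1.00 without library 1 of the omission), and Pramef17 had 2.05 and 1.77 CPM, against 0.751 and 0.867 CPM (1.24), called without the low-count filter (adjusted p = 0.026), with counts halved (adjusted p = 0.031) and in a fit of these 4 libraries alone (adjusted p = 0.034). Without Activin A or BMP4 no member was called by edgeR or DESeq2 (0 of 6 each, where 1.12% and 0.0559% of tested genes changed; 0 and 1 of 6 had an unadjusted p below 0.05).

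Over the 26 group means neighbouring groups often overlapped in level. S1 cells, the CHIR arms and EPSC libraries 1 and 2 come from the first library set. In steps between the sets, set and treatment cannot be told apart. Of the 25 steps between neighbouring groups, the libraries did not overlap in 14 for Gm13119, 11 for Pramef25, 7 for Pramel7, 6 for Pramef6, 4 for Pramel6 and 3 for Pramef17. Pramef25 stood at 178 ± 3.12 CPM (SD, n = 2) in S1 cells, then at 42.8 CPM in S5 without XAV 939 and 41.8 CPM in P25 cells, which overlapped, and at 35.8 CPM in P38 cells and 30.3 CPM in S5 without FGF4. Its lowest groups with counts were mESCs at 0.0136 CPM, S3 without CD1530 at 0.608 CPM and CHIR with Elvitegravir at 1.51 CPM. Gm13119 stood at 55.4 CPM in S1 cells, then at 28.1 CPM in mESC S1 cells, 21.2 CPM in S5 without XAV 939 and 16.7 CPM in P25 cells, each step without overlap.

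The less abundant genes had other orders, with the same limit on steps between the library sets. Pramef17 stood at 15.2 CPM in S1 cells and at 2.79 CPM in P25 cells, without overlap, and the next 13 steps all overlapped. Pramef6 was at 7.06 CPM in S5 without FGF4, 6.33 CPM in S1 cells, 5.55 CPM in S5 without XAV 939 and 4.68 CPM in P25 cells, with no overlap between these. Pramel6 exceeded 1 CPM in 5 groups: mESC S1 (3.17 CPM), P38 (2.57 CPM), S3 without Birabresib (1.87 CPM), P25 (1.81 CPM) and S3 without CHIR (1.51 CPM). Pramel7 stood at 19.3 CPM in mESCs, 8.97 CPM in mESC S1, 5.49 CPM in P38 and 3.99 CPM in P25 cells, with no overlap. The 6 genes together summed to 257 and 255 CPM in S1 cells, 76.2 and 67.4 CPM in P25 cells, 57.8 and 58.7 CPM in mESC S1 cells and 21.1 and 21.7 CPM in mESCs, of which Pramel7 made up 89.9%.

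The genes fell into 2 patterns over the groups. As a description, with groups that share lines and library sets, Pearson's r of mean log2 CPM (prior count 2) over the 26 groups was 0.98 for Pramef25 and Gm13119, 0.854 for Pramef25 and Pramef6, 0.793 for Pramef25 and Pramef17 and 0.892 for Pramef17 and Pramef6. Pramel6 and Pramel7 had r = 0.812 with each other, but 0.195 and 0.116 with Pramef25. Likeness of start sites and of levels went together in some pairs and not in others. Pramef6 and Gm13078 shared 84.4% of start-site positions with r = 0.925, and Pramel7 and Gm13128 shared 73.7% with r = 0.778. Pramef17 and Gm13128, 97.3% identical there, had r = 0.248, and Gm13128 was closer to Pramel6 (0.912), with which it shared 43.7%.

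**Figure D5:**
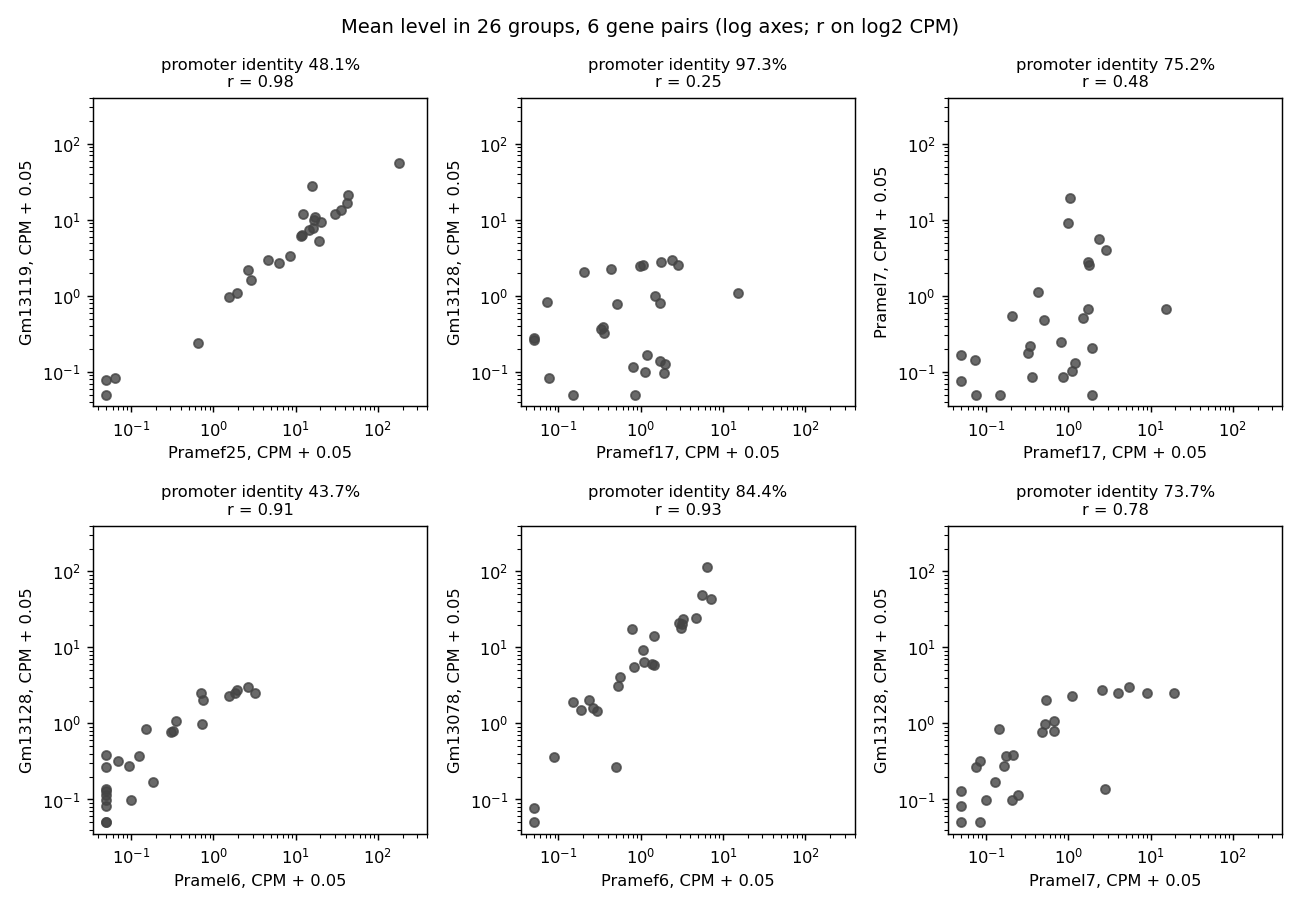
Group means of 6 gene pairs, chosen after their values were seen, over the 26 groups on log axes (CPM with 0.05 CPM added), with the identity of their start-site windows and Pearson's r of log2 CPM. Pramef25 and Gm13119 (48.1% identity) had r = 0.98, while Pramef17 and Gm13128 (97.3% identity) had r = 0.25, Pramef17 and Pramel7 (75.2%) r = 0.48, and Pramel6 and Gm13128 (43.7%) r = 0.91; Pramef6 and Gm13078 (84.4%) had r = 0.93 and Pramel7 and Gm13128 (73.7%) r = 0.78.

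Gm13128, whose exons span 1745 bases against 1753 for Pramef17, had other levels in the same groups. In S1 cells it had 0.946 and 1.11 CPM, against 14.5 and 15.9 CPM of Pramef17, and in mESCs 2.29 and 2.67 CPM, against 1.28 and 0.734 CPM. It was higher in mESCs than in EPSC libraries 3 and 4 (log2 fold change 3.51) and in P25 cells (2.46 CPM on average, against 0.215 CPM in those EPSCs; 3.50), and was not called between mESC S1 cells and mESCs (-0.03). In S5 aggregates it had no count, as Pramel6 did, against 2.60 and 1.41 CPM at S3 (at least 29.7-fold lower, edgeR adjusted p = 1.7e-08).

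Genes outside the family that were most like each member over the 26 groups differed from member to member. Whether they split into the patterns above was not computed. For Pramef25 they were Zscan4e (r = 0.993), Usp17lc (0.993) and Zscan4f (0.99), and for Gm13119 Eif4a3l1 (0.983), Zscan4-ps2 (0.982) and Zscan4a (0.98). Pramef17 was nearest to Traf1 (0.921), Aqp9 (0.911) and Tdpoz8 (0.904), and Pramef6 to Spz1 (0.943), Zscan4-ps1 (0.937) and Vmn1r227 (0.921). For Pramel6 they were Wdr95 (0.917), Calcoco2 (0.908) and Mypn (0.902), and for Pramel7 Crxos (0.891), Denn2b (0.882) and Cited4 (0.872).

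Transcripts of known partners of the Pramel7 protein did not follow the Pramel7 transcript in one way. Removal of UHRF1 acts on protein, which RNA levels do not show. Uhrf1 had 361 CPM in S1 cells and 727 CPM in EPSCs (log2 fold change -1.01, edgeR adjusted p = 1.8e-12), 624 CPM in mESC S1 cells and 898 CPM in mESCs (-0.53, not called), and 495 CPM in P25 cells and 792 CPM in EPSCs (-0.68, not called). Pramel7 was higher in S1 and P25 cells and lower in mESC S1 cells in those comparisons. Cul2 had 113 CPM in S1 cells and 120 CPM in EPSCs (-0.08). Of 13 CUL2 ligase and DNA methylation genes, 1 rose and 4 fell in S1 cells, with a median change of -0.44 beside 0.00 for all tested genes. Stat3 had 62.8 CPM in S1 cells and 146 CPM in EPSCs (-1.22), and 95.7 CPM in mESC S1 cells and 192 CPM in mESCs (-1.01, edgeR adjusted p = 5.7e-12).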

How the data were processed

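The deposited table holds the authors' raw counts of reads per gene, 1 column for each of 52 libraries. The submitters' processing notes name Trimmomatic 0.39, STAR 2.7.10b with mm10, and featureCounts 2.0.6. The sources used here give neither the annotation nor the strand setting, nor how multiply aligned reads were treated. Gene models and coding sequences came from GENCODE M21, and start-site windows from RefSeq on GRCm38.p6.

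From these counts, genes with low values were removed (edgeR 4.0.16, filterByExpr, 25056 of 55291 kept), libraries were scaled with TMM factors, and 1 quasi-likelihood model with 26 group means was fitted in R 4.3.3 with limma 3.58.1. CPM values use the TMM sizes. A change was called at a Benjamini-Hochberg adjusted p below 0.05 over all tested genes and at least 1 on the log2 scale, and standard errors are the absolute log2 change over the root of the F value. There were 29 planned comparisons, and 4 comparisons of omission effects between S3 and S2 were added after values had been seen. Where a group had no count, folds were computed against 3 read pairs over its 2 libraries (6 counts where both mates were counted). These folds allow for counting error in the empty group only and are no lower bound where the other group has few counts. With 1 to 3 counts a ratio with an exact 95% binomial interval on read pairs is given, which covers counting error only. Depth was 16643188 to 108304781 counts, and 6 libraries had mates counted once. The steps were tested on simulated data.

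The genes named are the 6 members in every comparison; at most 8 other family genes called in S1, mESC S1 or P25 cells with a group mean of 1 CPM or more; the 3 genes outside the family, without predicted names, most correlated with each member; and partner genes where a result turned on them. Gm13128 was described further after its values were seen, and Gm13101 is named for its sequence likeness only. Members and lists were chosen with earlier results of these data known. Replicate numbers were not used to pair the libraries in the main fit. Deviations of same-numbered libraries correlated between -0.616 and 0.923 over 300 pairs of groups (median -0.00556, 26.3% above 0.1). Pairing within some groups is therefore not excluded. Alternatives were RLE scaling, no filter, a replicate block, DESeq2 1.42.0, halved counts, the compared libraries alone, pooled EPSC libraries, raw totals, P38 in place of P25, and each library left out in turn; leaving out library 2 of CHIR and of PD0325901 together was chosen after seeing the data.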

Additional observations from a re-analysis of the deposited data

Results flagged for a closer look

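Responses to the totipotency medium differed between the 2 starting lines for 3 genes. The log2 change in mESCs minus that in EPSCs was -12.42 for Pramef17 (SE 1.22, edgeR adjusted p = 2.8e-10), -9.45 for Pramef6 (SE 1.25, edgeR adjusted p = 1.6e-07) and -3.49 for Pramel7 (SE 0.82, edgeR adjusted p = 0.00092). Neither EPSC library had a count of Pramef17 or Pramef6, so those values are no measure of size. Pramef17 also shares 56.3% of its 100-base windows with Gm13128, whose reads cannot be told apart there. All 3 calls held without each of the 8 libraries. The change of Pramel7 over EPSCs was larger by 4.68 in P25 cells than in S1 cells (SE 1.57, edgeR adjusted p = 0.031), a call that was lost without 6 of the 8 libraries. Passage and library set cannot be told apart there.

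Omission effects differed between day 2 and day 1 of aggregate culture. For Birabresib the log2 effect at S3 minus that at S2 was 1.73 for Pramef25, 1.70 for Gm13119 and 2.45 for Pramef6 (edgeR adjusted p = 0.00015, 0.00015 and 0.042). For CD1530 it was -2.27 for Gm13119 and -1.18 for Pramef25 (edgeR adjusted p = 0.00043 and 0.046). The calls for Pramef6 and for Pramef25 under CD1530 were each lost without most single libraries, as given above.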

How the results depend on the processing

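No result reversed under any alternative run. The replicate block changed no call: all 33 counts of changed members and all 198 member changes stayed on their side of the threshold. Counts that moved by over 1.5 times are given first. RLE scaling moved 1 of 33, CD1530 omission at S3 minus at S2 (1 in place of 2). Halving counts in the 46 libraries gave 3 in place of 5 for CHIR against EPSCs, 1 in place of 0 for S2 without Birabresib, 2 in place of 1 for S5 without FGF4 and 1 in place of 2 for the CD1530 difference. Without the filter, S2 without Birabresib had 1 in place of 0, S3 without 8Br-cAMP 2 in place of 1 and S5 without FGF4 2 in place of 1. DESeq2 gave 1 for S2 without Birabresib and 2 for S3 without 8Br-cAMP. Using the compared libraries alone gave 2 for CHIR against EPSCs, 0 in place of 4 for PD0325901 against CHIR, 1 in place of 0 for S3 without CHIR, 2 for S5 without FGF4 and 2 in place of 1 for the P25 difference. Other counts changed by 1 within that tolerance: the mESC interaction (4 in place of 3) by DESeq2 and in the compared libraries alone; S3 without CD1530 (5) to 4 with counts halved or in the compared libraries and 6 without the filter; S3 without Birabresib (5) to 6 with counts halved or in the compared libraries; the Birabresib difference (3) to 4 without the filter and 2 in the compared libraries; mESCs against EPSCs (4) to 3 in the compared libraries; CHIR against EPSCs (5) to 4 with pooled EPSC libraries or without library 2 of CHIR and PD0325901; and S1 against PD0325901 (5) to 6 in that last setting. The causes were not tested.

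Leaving out 1 library moved 12 counts by over 1.5 times: 2 to 4 for CHIR against EPSCs (5 with all libraries), 2 to 3 for mESC S1 against mESCs (5), 0 to 2 for S2 without 8Br-cAMP (1), 0 to 1 for S2 without Birabresib (0) and without CHIR (1), 1 to 2 for S2 without CD1530 (1), 1 to 2 for S3 without 8Br-cAMP (1), 2 to 4 for S3 without CD1530 (5), 0 to 1 for S5 without FGF4 (1), 0 to 1 for the P25 difference (1) and for the CHIR difference between stages (0), and 1 to 2 for the CD1530 difference (2). Another 7 changed by 1: S1 against EPSCs had 5 (6 with all libraries) whichever of the 4 was left out, S1 against CD1530, S2 against P25 and S5 against S3 had 5 to 6 (6), S3 against S2 had 2 to 4 (3), the mESC interaction 3 to 4 (3) and the Birabresib difference 2 to 3 (3). A lone remaining library was assumed to vary like the other groups. Raw totals in place of TMM sizes moved 14 of 156 levels by more than 1 SD. Depth limits Pramel6, Pramel7, Pramef17 and Pramef6 most, whose levels under 1 CPM rest on few counts.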

Other observations

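Other family genes on the list rose with the chromosome 4 members. Gm13078, whose coding sequence is 95.7% identical to that of Pramef6, had 113 ± 3.73 CPM in S1 cells (SD, n = 2), against no count in EPSCs, at least 1610-fold higher. Gm12794 had 91.9 CPM and Gm13083 22.6 CPM in S1 cells, also against no count (at least 1310-fold and 322-fold), and B020004J07Rik had 49.6 CPM, against 0.190 CPM (log2 fold change 8.03). Over the 26 groups the r of Gm13078 was 0.969 with Pramef25 and 0.925 with Pramef6. Of the 100-base windows of Pramef6, 340 also occurred in Gm13083.

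Others started from counts in stem cells. Pramef12 had 58.7 ± 0.484 CPM in P25 cells (SD, n = 2), against 29.2 CPM in EPSC libraries 3 and 4 (1.01, SE 0.11, edgeR adjusted p = 8.1e-10). Pramel1 had 3.10 CPM in S1 cells, against 0.686 CPM in EPSCs (2.16), and Pramel3 had 3.51 CPM in mESC S1 cells, against 0.114 CPM in mESCs (4.88).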
